A study of Homo sapiens with 8 samples.

Results

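The glucocorticoid receptor gene NR3C1 and 5 genes of its circuit, FKBP5, FKBP4, TSC22D3, SGK1 and PER1, were followed in CEM, an established human cell line from a T-cell acute lymphoblastic leukaemia. All probe sets of the array whose only gene symbol is 1 of these 6 were taken, without regard to their values, which gave 18 of the 54613 probe sets tested: 4 of NR3C1, 3 of FKBP5, 4 of FKBP4, 3 of TSC22D3, 1 of SGK1 and 3 of PER1. The 2 groups were 4 ZMIZ1 knockdown cultures, transfected with an shRNA against ZMIZ1, and 4 control cultures, transfected with a scrambled shRNA. Both groups are the same line, 1 shRNA against ZMIZ1 is named, and the labels name no glucocorticoid or other drug, so the values are those of cells with no stated hormone treatment. The shRNA's effect on other transcripts cannot be told apart from the lower ZMIZ1. Each value is a log2 RMA signal of 1 probe set on 1 array, and each difference is ZMIZ1 knockdown minus control on that scale. A difference passed the test when the p-value of limma, adjusted over all 54613 probe sets, was under 0.05.

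The glucocorticoid receptor is a ligand-activated transcription factor of the nuclear receptor family. Without hormone it is held in the cytoplasm by HSP90 and its partners, among them the immunophilins FKBP51, encoded by FKBP5, which lowers its affinity for hormone, and FKBP52, encoded by FKBP4, which takes the place of FKBP51 after hormone binds and favours transport into the nucleus. Hormone-bound receptor raises transcription of FKBP5, which closes a negative feedback loop, and of TSC22D3, SGK1 and PER1. Glucocorticoids kill many lymphoid leukaemia cells, and the receptor level is among the factors known to set how sensitive such cells are.

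FKBP5 was the member with a probe set that passed, and it fell. Of the 18 probe sets 1 passed, in the direction of lower signal (5.56%), 0 passed as higher and 17 did not pass; across the array 13.9% of probe sets passed, 8.38% as higher and 5.52% as lower, so the members' share was below the background. At an unadjusted p under 0.05 there were 6, all lower in knockdown arrays: 2 of NR3C1, 2 of FKBP5 and those of SGK1 and PER1 described below. The share of all probe sets at that unadjusted level is not given here, so these 6 are not read as an excess. That share is at least the 13.9% that passed after adjustment. The median difference was -0.17 over the 18 probe sets and 0.01 over all probe sets, with 11 below 0 and 7 above. The groups did not overlap in 2 of the 18 probe sets (11.1%), against 19.8% of all probe sets. The count of 1 became 2 without control replicate 1 and without any of knockdown replicates 1, 2 and 3, and 0 with the 18S ribosomal RNA signal as a covariate.

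ZMIZ1, the shRNA's target and a PIAS-like transcriptional coactivator, had signals of 9.76, 9.95, 10.01 and 10.07 in the knockdown arrays and 11.07, 11.18, 11.19 and 11.20 in the control arrays on its brightest probe set (difference -1.21, 43.2% of control, adjusted p = 0.000109). The dim ZMIZ1 probe sets 232508_at and 233060_at did not pass (-0.10 and -0.07, adjusted p = 0.706 and 0.777). The array medians were 5.15 to 5.18 in knockdown and 5.18 to 5.20 in control arrays. The 18S control signal, a measure of ribosomal RNA in the labelled target, was 12.12, 11.67, 9.85 and 10.21 in knockdown arrays 1 to 4 and 13.37, 13.24, 13.06 and 12.70 in control arrays 1 to 4, so it separated the groups (exact permutation p = 0.0286, the lowest value possible over 70 assignments). Signal of the ACTB 3′ probe set minus its 5′ probe set, which grows as RNA is shorter or labelled less far, was 1.80, 1.62, 2.61 and 1.77 in knockdown arrays and 2.37, 1.21, 1.54 and 0.69 in control arrays (difference 0.50, exact permutation p = 0.286). Among 10 T cell markers 6 lay above the 75th percentile of mean signals, with a mean over the list of 8.86 to 8.99 in knockdown and 8.77 to 8.88 in control arrays, while CD2 was dim (4.12 in knockdown and 4.02 in control arrays). The mean of 4 B cell markers was 5.47 to 5.51 in knockdown and 5.44 to 5.52 in control arrays, that of 4 myeloid markers 4.70 to 4.87 in knockdown and 4.82 to 4.96 in control arrays, and that of 2 erythroid markers 5.01 to 5.19 in knockdown and 4.76 to 4.81 in control arrays, with none of these 10 above that percentile.

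**Figure D1:**
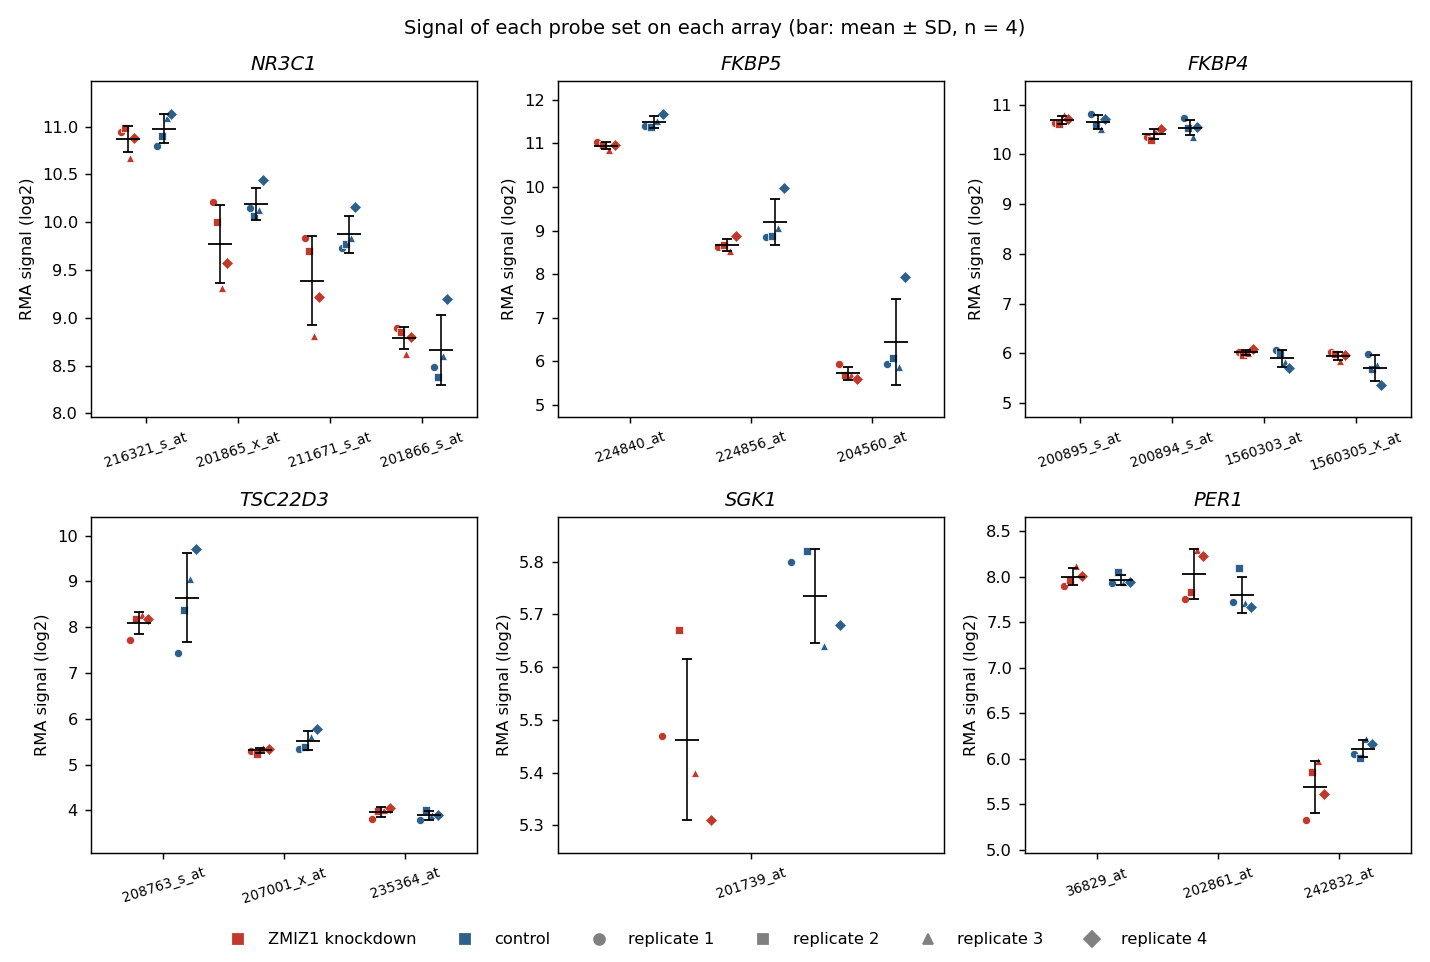
Log2 RMA signal (vertical axis, a scale of its own in each panel) of the 18 probe sets in 4 ZMIZ1 knockdown arrays (red, left of each pair) and 4 control arrays (blue, right), with the marker shape giving the replicate number and bars the mean ± SD. FKBP5 224840_at and PER1 242832_at have no overlap between groups, and control replicate 4 (blue diamond) is the top point of all NR3C1 and FKBP5 probe sets and of TSC22D3 208763_s_at.

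NR3C1 (gene ID 2908, chromosome 5) encodes the receptor itself, and none of its 4 probe sets passed. The brightest, 216321_s_at, had signals of 10.94, 10.99, 10.67 and 10.88 in ZMIZ1 knockdown arrays and 10.80, 10.90, 11.09 and 11.13 in control arrays. The groups overlapped, with means of 10.87 ± 0.14 in knockdown and 10.98 ± 0.16 in control arrays (SD, n = 4 each). The difference was -0.12 ± 0.10 (SE; 95% confidence interval -0.34 to 0.11; adjusted p = 0.506), an interval of 79.2% to 108.0% of control. In RNA from whole cultures, fewer cells holding a transcript and less of it per cell cannot be told apart.

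The other NR3C1 probe sets pointed in different directions. On 201865_x_at the signals were 10.21, 10, 9.31 and 9.57 in knockdown arrays and 10.15, 10.06, 10.13 and 10.44 in control arrays (difference -0.42 ± 0.18, SE; unadjusted p = 0.0364, adjusted p = 0.146). On 211671_s_at they were 9.83, 9.70, 8.81 and 9.22 in knockdown arrays and 9.73, 9.77, 9.83 and 10.16 in control arrays (-0.48 ± 0.20; unadjusted p = 0.0348, adjusted p = 0.141). On both, knockdown replicates 3 and 4 lay well below every control array, knockdown replicate 2 just below them all and knockdown replicate 1 among them. Without knockdown replicate 1, 201865_x_at passed (-0.57, adjusted p = 0.0432). Without knockdown replicate 3 the differences of 201865_x_at and 211671_s_at were -0.27 and -0.29 (adjusted p = 0.323 and 0.297). With knockdown replicates 1 and 2 only they were -0.09 and -0.11 (adjusted p = 0.752 and 0.705). Knockdown replicates 3 and 4 are also the arrays with the lowest 18S signal, and knockdown replicate 3 has the largest ACTB 3′ minus 5′ signal of the 8; with the 18S signal as a covariate both differences were 0.24 (adjusted p = 0.709 and 0.752), and the part of RNA quality in them was not tested.

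The fourth, 201866_s_at, had signals of 8.89, 8.85, 8.62 and 8.80 in knockdown arrays and 8.49, 8.38, 8.60 and 9.20 in control arrays (0.13 ± 0.16, SE; adjusted p = 0.665). Control replicates 1 to 3 lay below every knockdown array and control replicate 4 above them all. Set against 216321_s_at within each array, the group difference was -0.31 for 201865_x_at (exact permutation p = 0.114), -0.37 for 211671_s_at (p = 0.0857) and 0.24 for 201866_s_at (p = 0.143). A name ending in _s_at or _x_at marks probes that match more than 1 transcript, and the probe sets' positions were not used here.

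FKBP5 (gene ID 2289, chromosome 6), the receptor's inhibitory co-chaperone and a feedback target, was lower after ZMIZ1 knockdown on its brightest probe set, 224840_at. Its signals were 11.02, 10.96, 10.84 and 10.95 in knockdown arrays and 11.39, 11.38, 11.51 and 11.68 in control arrays. Every knockdown array lay below every control array. The means were 10.94 ± 0.08 in knockdown and 11.49 ± 0.14 in control arrays (SD, n = 4 each), so FKBP5 fell by 0.55 ± 0.08 (SE; 95% confidence interval -0.74 to -0.36; adjusted p = 0.00291), to 68.3% of control with an interval of 59.9% to 77.8%. With each array left out in turn the difference was -0.59 to -0.49 and passed each time (adjusted p from 0.00476 to 0.0133). With the 18S covariate the size was close, -0.50 ± 0.16, and it no longer passed (adjusted p = 0.227), a fit in which 0.0879% of all probe sets passed.

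The dimmer FKBP5 probe sets had differences of a similar size and wide errors. The signals of 224856_at were 8.62, 8.66, 8.52 and 8.87 in knockdown arrays and 8.86, 8.87, 9.06 and 9.97 in control arrays (-0.52 ± 0.22, SE; unadjusted p = 0.0348, adjusted p = 0.141). Those of 204560_at were 5.94, 5.69, 5.68 and 5.59 in knockdown arrays and 5.93, 6.08, 5.88 and 7.93 in control arrays (-0.73 ± 0.38; adjusted p = 0.246). Control replicate 4 was the highest control on both, with 9.97 against at most 9.06 and 7.93 against at most 6.08. Without that array the differences were -0.26 and -0.24, against -0.49 for 224840_at.

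Both RefSeq promoter windows of FKBP5 (GRCh38.p14, 250 bases before to 50 after a transcript start, minus strand) are printed because FKBP5 is the member that passed and its start sites differ in base content, with 55.7% G and C in the first window and 76% in the second, against a median of 58.7% over 35116 windows. Capitals mark matches on either strand to AGAACA (an arm of the glucocorticoid response element), ACANNNTGT (the inner bases of the whole element), CACGTG (the E-box) or TATAAA (the core promoter box), and no matches overlap here. The upstream window, chr6:35728534-35728833, holds AGAACA at base 1 after the start, and the downstream one, chr6:35688866-35689165, holds CACGTG at -227.
FKBP5 upstream start: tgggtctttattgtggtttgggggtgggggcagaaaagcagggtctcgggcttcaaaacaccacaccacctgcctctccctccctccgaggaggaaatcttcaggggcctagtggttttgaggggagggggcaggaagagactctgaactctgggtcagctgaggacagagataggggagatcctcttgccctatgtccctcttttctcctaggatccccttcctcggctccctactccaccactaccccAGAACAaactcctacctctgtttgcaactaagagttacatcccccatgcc
FKBP5 downstream start: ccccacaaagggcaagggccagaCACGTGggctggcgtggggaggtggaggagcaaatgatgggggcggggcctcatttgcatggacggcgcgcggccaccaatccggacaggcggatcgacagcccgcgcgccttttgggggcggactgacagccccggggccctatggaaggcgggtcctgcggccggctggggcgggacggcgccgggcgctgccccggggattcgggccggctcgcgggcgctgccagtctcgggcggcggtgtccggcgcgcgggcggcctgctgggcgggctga
AGAACA is in 14.8% of all windows and CACGTG in 7.26%. The whole element, with AGAACA on both strands at a spacing of 3 bases, is in 1 of the 35116 windows and in 0 of the 17 windows that RefSeq lists for NR3C1, FKBP5, TSC22D3, SGK1 and PER1. The best known elements of FKBP5 lie in its introns, outside such windows, and a window with no match shows only that these letters are not in it.

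FKBP4 (gene ID 2288, chromosome 12) encodes FKBP52, the immunophilin that takes the place of FKBP51 on the activated receptor. On its brightest probe set, 200895_s_at, the signals were 10.64, 10.62, 10.79 and 10.71 in knockdown arrays and 10.82, 10.59, 10.50 and 10.71 in control arrays. The groups overlapped throughout, and the difference was 0.03 ± 0.09 (SE; 95% confidence interval -0.16 to 0.22; adjusted p = 0.852), an interval of 89.7% to 116.0% of control. On 200894_s_at the difference was -0.14 ± 0.09 (adjusted p = 0.381). On 1560303_at and 1560305_x_at, with means near 6 in both groups, it was 0.12 ± 0.09 and 0.25 ± 0.12 (adjusted p = 0.425 and 0.198). The sign of the 200895_s_at difference is not settled, since it was -0.08 with the 18S covariate and -0.02 without control replicate 3.

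The signal of FKBP4 relative to FKBP5 shifted between the groups. With differences of 0.03 for FKBP4 200895_s_at and -0.55 for FKBP5 224840_at, this shift largely restates the fall of FKBP5 and is no separate support for it. The signal of FKBP4 200895_s_at minus that of FKBP5 224840_at was -0.37, -0.34, -0.05 and -0.24 in knockdown arrays and -0.57, -0.79, -1.0 and -0.97 in control arrays. All knockdown arrays lay above all control arrays, by a mean of 0.58 ± 0.12 (SE), a 1.5-fold shift towards FKBP4 (exact permutation p = 0.0286, the smallest possible). This is a shift of a within-array difference between groups, and it says nothing of which transcript is more abundant, since each probe set has its own brightness per molecule. The shift was 0.52 to 0.67 with an array left out, and the exact permutation p was 0.0571 without knockdown replicate 2, 3 or 4. It was 0.42 ± 0.23 (SE) with the 18S covariate. With knockdown replicates 1 and 2 only it was 0.47, where 15 assignments allow no p below 0.0667.

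**Figure D2:**
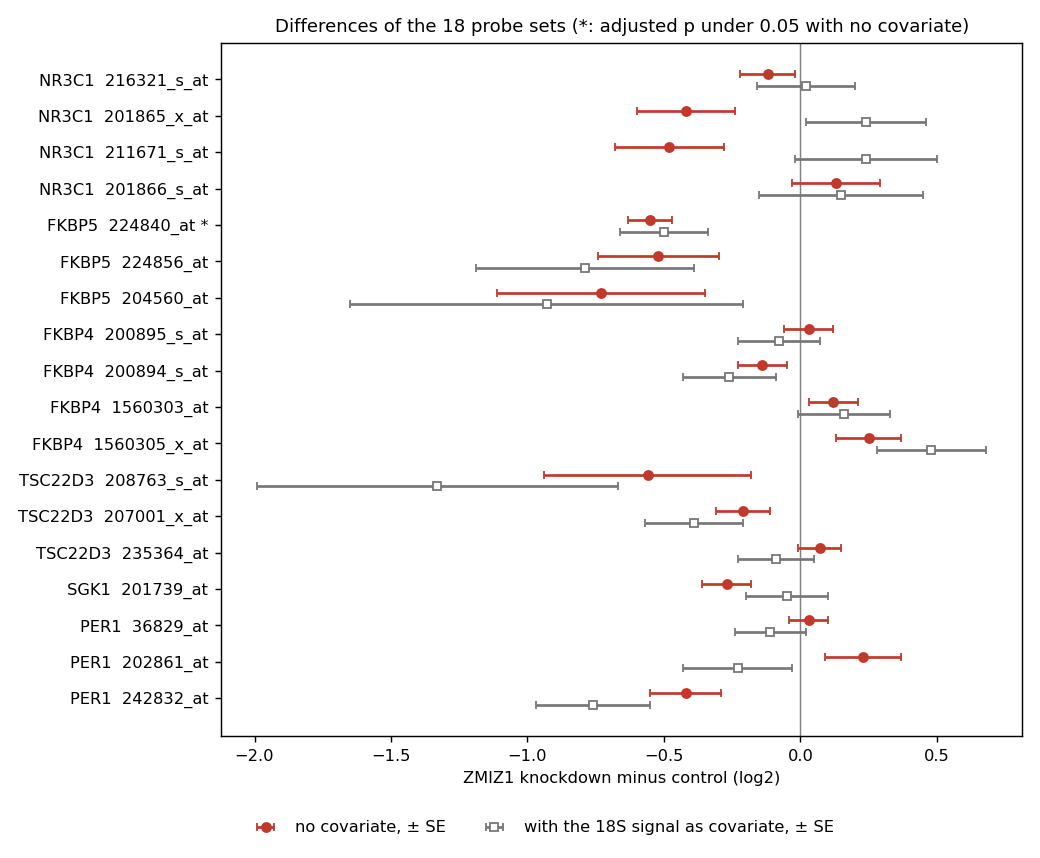
Difference in log2 signal, ZMIZ1 knockdown minus control (horizontal axis), of the 18 probe sets, with no covariate (red circles) and with the 18S signal as a covariate (grey squares), each ± SE of limma. FKBP5 224840_at, the starred probe set, has -0.55 and -0.50, while NR3C1 201865_x_at and 211671_s_at lie on opposite sides of 0 in the 2 models.

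TSC22D3 (gene ID 1831, chromosome X) encodes GILZ, a leucine zipper protein through which glucocorticoids restrain inflammation and T cell activation. On its brightest probe set, 208763_s_at, the signals were 7.73, 8.19, 8.26 and 8.18 in knockdown arrays and 7.44, 8.37, 9.06 and 9.70 in control arrays. The controls alone spanned 2.27 log2 units, more than 99.9% of probe sets on the array (median range of the controls 0.28), and all knockdown arrays lay within that span. The difference was -0.56 ± 0.38 (SE; 95% confidence interval -1.40 to 0.29; adjusted p = 0.387). It passed without control replicate 1 (-0.96, adjusted p = 0.0469) and was -0.20 without control replicate 4 (adjusted p from 0.0469 to 0.724 with an array left out).

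The dim 207001_x_at repeated the order of the controls at a smaller scale, with 5.30, 5.24, 5.37 and 5.34 in knockdown arrays and 5.33, 5.38, 5.60 and 5.78 in control arrays (-0.21 ± 0.10, SE; adjusted p = 0.218). The dimmest, 235364_at, had means of 3.97 ± 0.11 in knockdown and 3.89 ± 0.10 in control arrays (0.07 ± 0.08; adjusted p = 0.611). One TSC22D3 window, chrX:107775939-107776238 (minus strand, 69.3% G and C), is printed because it is a member window with the inner bases of the element close to a start, ACATGCTGT at -7, in capitals as above.
TSC22D3 start: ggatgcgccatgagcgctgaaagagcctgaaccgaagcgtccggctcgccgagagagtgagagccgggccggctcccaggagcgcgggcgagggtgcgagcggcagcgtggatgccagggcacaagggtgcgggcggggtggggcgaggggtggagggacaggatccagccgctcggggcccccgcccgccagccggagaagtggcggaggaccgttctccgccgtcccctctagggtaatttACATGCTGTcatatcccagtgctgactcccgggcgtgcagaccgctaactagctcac
The letters ACANNNTGT are in 5.37% of all windows; an overlapping TSC22D3 window holds the same match, at -208 from its own start.

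SGK1 (gene ID 6446, chromosome 6) encodes a serine/threonine kinase that glucocorticoids and aldosterone induce and that acts on ion channels and cell survival. Its single probe set, 201739_at, was dim, with a mean under 6 in both groups. The signals were 5.47, 5.67, 5.40 and 5.31 in knockdown arrays and 5.80, 5.82, 5.64 and 5.68 in control arrays. Knockdown replicates 1, 3 and 4 lay below every control array, and knockdown replicate 2 lay just above control replicate 3. The difference was -0.27 ± 0.09 (SE; 95% confidence interval -0.47 to -0.07; unadjusted p = 0.013), or 82.9% of control, and it did not pass (adjusted p = 0.0743). It passed without knockdown replicate 2 (-0.34, adjusted p = 0.0321) and was -0.05 with the 18S covariate.

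PER1 (gene ID 5187, chromosome 17) encodes a repressor of the circadian clock that glucocorticoids induce directly. Its 3 probe sets disagreed. On the brightest, 36829_at, the signals were 7.90, 7.96, 8.12 and 8.01 in knockdown arrays and 7.93, 8.05, 7.94 and 7.94 in control arrays (0.03 ± 0.07, SE; 95% confidence interval -0.13 to 0.20; adjusted p = 0.81). On 202861_at they were 7.75, 7.83, 8.29 and 8.23 in knockdown arrays and 7.72, 8.09, 7.71 and 7.67 in control arrays (0.23 ± 0.14; adjusted p = 0.327). The groups overlapped on both.

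On the dim PER1 probe set 242832_at the knockdown arrays all lay below the controls, with signals of 5.32, 5.85, 5.97 and 5.61 in knockdown arrays and 6.05, 6.01, 6.22 and 6.16 in control arrays. Its difference of -0.42 ± 0.13 (SE; unadjusted p = 0.00793) did not pass (adjusted p = 0.0545). It passed without knockdown replicate 3 (-0.52, adjusted p = 0.0319), with array weights (-0.45, adjusted p = 0.0199) and with the replicate number as a block (-0.42, adjusted p = 0.0439), although the replicate numbers do not pair the cultures. PER1's window, chr17:8152355-8152654 (minus strand, 69% G and C), is printed because it holds CACGTG at -173, the E-box through which the clock's activators drive PER genes.
PER1 start: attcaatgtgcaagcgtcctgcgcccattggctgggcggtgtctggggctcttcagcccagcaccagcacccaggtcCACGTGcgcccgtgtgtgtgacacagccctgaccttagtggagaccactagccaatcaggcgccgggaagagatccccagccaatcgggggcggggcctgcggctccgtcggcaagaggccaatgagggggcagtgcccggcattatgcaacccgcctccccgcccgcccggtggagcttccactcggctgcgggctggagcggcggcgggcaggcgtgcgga
Member windows with this E-box are this one and the downstream FKBP5 window.

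The member levels on single arrays shared a pattern that was looked for after the values were seen. Control replicate 4 had the highest signal of the 8 arrays on 9 of the 18 probe sets (50%), against 14.0% of all probe sets. These were all 4 of NR3C1, all 3 of FKBP5 and 2 of the 3 of TSC22D3, with 0 of the 8 of FKBP4, SGK1 and PER1. Control replicate 4 also has the lowest ACTB 3′ minus 5′ signal (0.69) and the lowest 18S signal (12.70) of the controls, and control replicate 1, with the lowest TSC22D3 signal, has the highest of both (2.37 and 13.37); their part in the pattern was not tested. Within the knockdown arrays the range was 0.18 for FKBP5 224840_at and 0.53 for TSC22D3 208763_s_at, against 0.29 and 2.27 in the controls. The knockdown range was the narrower one on 11 of the 18 probe sets and the wider one on 7. Among the 7 were NR3C1 201865_x_at (0.90 in knockdown and 0.38 in control arrays) and 211671_s_at (1.02 and 0.43), SGK1 (0.37 and 0.18) and all 3 of PER1. The share of all probe sets with a narrower knockdown range is not given here, so this split is not read as a trait of the members.

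**Figure D3:**
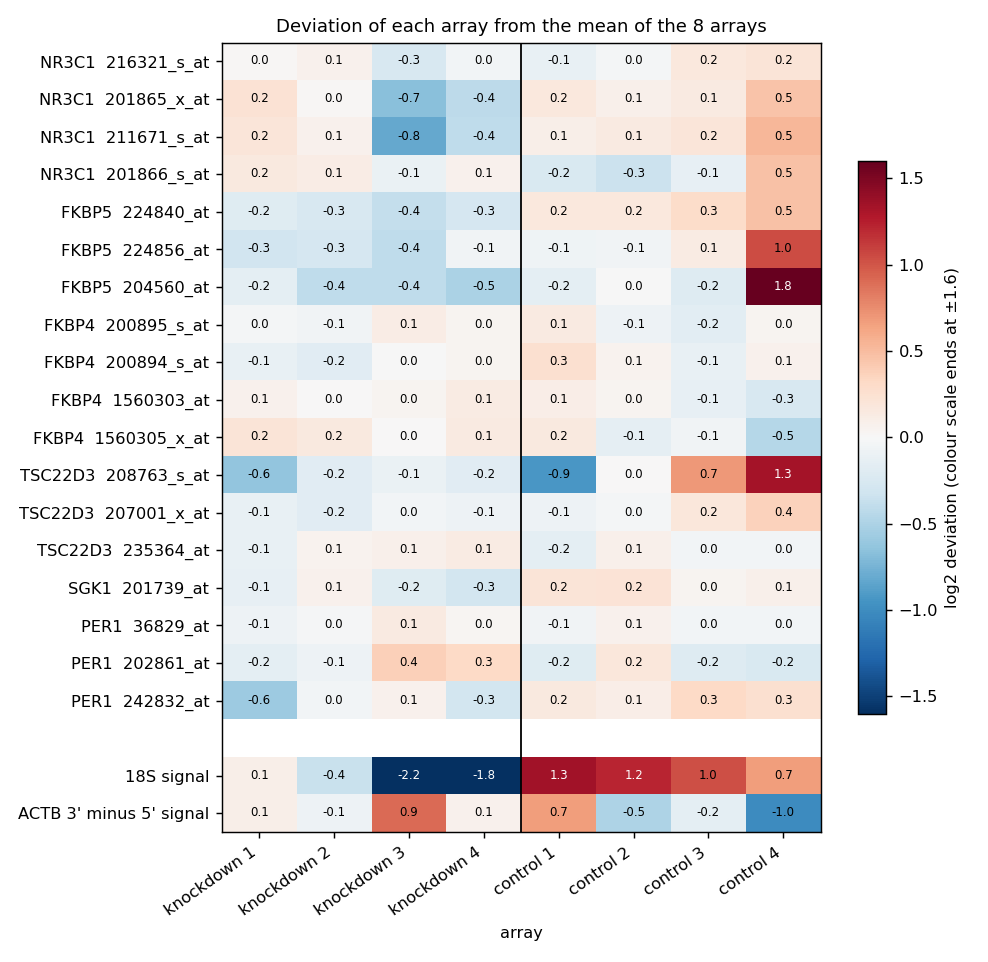
Deviation of each array (columns) from the mean of the 8 arrays, in log2 units, for the 18 probe sets and, below the gap, for the 18S signal and the ACTB 3′ minus 5′ signal; red is above and blue below the mean, and the colour scale ends at ±1.6. The last column, control replicate 4, is red for NR3C1, FKBP5 and TSC22D3 208763_s_at, and knockdown replicates 3 and 4 are blue for NR3C1 201865_x_at and 211671_s_at.

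By gene and its brightest probe set, 22.1% of 20282 genes passed (14.7% higher and 7.38% lower) with a median difference of 0.03; related lists are set beside these figures, and a list's own count is no test of the list. Of 25 other glucocorticoid-induced genes known from lymphoid cells, 2 rose, 3 fell and 20 did not pass (20%; median -0.07). ANXA1, the anti-inflammatory annexin that glucocorticoids release and induce, fell by 1.31 ± 0.09 (SE; adjusted p = 1.44e-05). Its signals were 9.20, 9.27, 9.54 and 9.46 in knockdown arrays and 10.58, 10.72, 10.68 and 10.73 in control arrays, a gap with no overlap, and it was the gene of the 8 lists that passed with the 18S covariate (-1.62, adjusted p = 0.000697). WFS1, an endoplasmic reticulum membrane protein, rose by 0.61 ± 0.08 (adjusted p = 0.000628; 8.94 ± 0.15 in knockdown and 8.33 ± 0.04 in control arrays, SD, n = 4 each), and its other probe set rose by 0.66. The dim CEBPD (4.12 in knockdown and 3.85 in control arrays) rose by 0.27. IL7R (-0.68) and SLA (-0.33), a T cell receptor adaptor, fell, and their other probe sets fell by 1.08 for IL7R and 0.98 for SLA. The call of SLA was lost without any of 6 arrays, that of CEBPD without knockdown replicates 1 or 4 or control replicate 3, and that of IL7R without knockdown replicate 4. The count of 5 was 2 without knockdown replicate 4 and 8, of which 6 fell, without control replicate 1.

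The high control replicate 4 recurred in this list. It was the top array for 11 of the 25 genes (44.0%), against 13.6% of all genes. DDIT4, an inhibitor of mTORC1, had signals of 12.08, 12.32, 12.12 and 12.19 in knockdown arrays and 11.76, 12.41, 12.79 and 12.90 in control arrays (-0.29 ± 0.20, SE; adjusted p = 0.339). TXNIP, an inhibitor of thioredoxin and glucose uptake, had 10.73, 10.84, 10.72 and 10.68 in knockdown arrays and 10.31, 10.78, 11.18 and 11.50 in control arrays (-0.20 ± 0.20; adjusted p = 0.516). BTG1, an antiproliferative gene, had 8.41, 8.51, 8.40 and 8.48 in knockdown arrays and 8.10, 8.65, 9.03 and 9.13 in control arrays (-0.28 ± 0.18; adjusted p = 0.311). In these genes, as in TSC22D3, the knockdown arrays lay close together inside the span of the controls, with control replicate 1 lowest and control replicate 4 highest of the controls; that order held for 8 of the 25 genes (32.0%) and 12.5% of all genes. The 3 genes were chosen after their values were seen.

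Of 15 genes of the receptor's chaperone cycle, DNAJB1 rose and 14 did not pass (6.67%, with a median of 0.02). DNAJB1, an HSP40 co-chaperone of HSP70, had signals of 10.59, 10.68, 10.96 and 10.90 in knockdown arrays and 10.49, 10.34, 9.92 and 9.76 in control arrays (0.65 ± 0.15, SE; adjusted p = 0.00949), with every knockdown array above every control array. Its other probe set had a difference of 0.34 that did not pass (adjusted p = 0.085). HSP90AA1 (0.02) and HSP90AB1 (-0.13), the 2 cytosolic HSP90 genes, did not pass. The count was 2 without control replicate 1 or control replicate 4.

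Of 13 other genes of the FKBP immunophilin family, 4 rose, 1 fell and 8 did not pass (38.5%; median 0.13). FKBP11, an FKBP of the secretory pathway, fell by 0.68 ± 0.10 (SE; adjusted p = 0.00105), with 11.75, 11.72, 11.74 and 11.70 in knockdown arrays and 12.57, 12.51, 12.48 and 12.06 in control arrays, and another of its probe sets fell by 0.46. FKBP1A, the target of tacrolimus (0.38), FKBP8, an inhibitor of apoptosis at mitochondria (0.38), the dim FKBP1B (0.35) and FKBP2 (0.30) were the rises. The other probe sets of FKBP8 had 0.10 and 0.08 and did not pass, and neither did their mean with the brightest (0.18, adjusted p = 0.0694); of the other 3 of FKBP1A 1 rose (0.71) and the rest did not pass (0.21 and 0.13). Of the calls in this family that of FKBP11 held with each array left out; leaving out an array gave 5 calls at most, with 1 when that array was knockdown replicate 4 or control replicate 1, 2 when it was knockdown replicate 3, and 3 when it was control replicate 3 or knockdown replicate 2. With the 18S covariate FKBP1A had a difference of 0.14, and 0 of the 13 passed, against 1.21% of all genes.

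Of 18 receptor coregulators, 2 rose, 4 fell and 12 did not pass (33.3%, with a median of -0.19). At an unadjusted p under 0.05 there were 11. The share of all genes at that level is not given here, but it is at least the 22.1% that passed after adjustment. CARM1, an arginine methyltransferase coactivator, fell by 0.45 ± 0.12 (SE; adjusted p = 0.0173), NRIP1, a corepressor that binds hormone receptors, by 0.41 ± 0.08 (adjusted p = 0.00446), and TBL1XR1, a subunit of the NCOR corepressor complex whose loss is known to blunt glucocorticoid responses in leukaemia, by 0.31 ± 0.09 (adjusted p = 0.0229). Of the other 5 probe sets of TBL1XR1, 3 fell (-0.93, -1.35 and -1.61) and the rest did not pass (0.11 and -0.14). The second probe set of NRIP1 fell by 1.09. NCOA1, the coactivator SRC1, rose by 0.30 ± 0.08 (adjusted p = 0.0148), and of its 4 others 1 rose (0.57) and 3 did not pass (0.19, -0.20 and -0.24). CREBBP (-0.27) also fell and HDAC1 (0.27) rose. The call of CREBBP was lost without knockdown replicates 1 or 2 or control replicates 2 or 3, that of TBL1XR1's brightest probe set without knockdown replicate 3 and that of NCOA1 without knockdown replicate 4. As the mean of its probe sets NCOA1 had 0.13 and did not pass (adjusted p = 0.276). With the 18S covariate 0 of the 18 coregulators passed, against 1.21% of all genes, and the list's median was -0.02.

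Of 17 clock genes other than PER1, 4 rose, 3 fell and 10 did not pass (41.2%; median 0.04). CRY2, a repressor that partners the PER proteins, rose by 0.60 ± 0.11 (SE; adjusted p = 0.00311), and CSNK1D, the kinase that marks PER proteins for degradation, by 0.59 ± 0.11 (adjusted p = 0.00261) with 0.72 on its other probe set. DBP, a clock output factor, rose by 0.51 ± 0.11 (adjusted p = 0.00692), but its other probe set had -0.20 and did not pass. BHLHE40, a repressor of clock activators, fell by 0.42 ± 0.12 (adjusted p = 0.0251), a call lost without control replicates 1, 2 or 3; its other probe set had 0.08 (adjusted p = 0.673), and the mean of both did not pass (-0.17, adjusted p = 0.191). TEF (0.36) also rose, and PER2 (-0.41), the closest relative of PER1, and CSNK1E (-0.39) fell, the last a call lost without any of 5 arrays (knockdown replicates 3 and 4, control replicates 2, 3 and 4). With the 18S covariate 0 of the 17 passed, against 1.21% of all genes, and CRY2 had 0.15.

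The 3 other receptors of the NR3C subfamily, 5 paralogs of SGK1 and TSC22D3, and 6 genes of steroid handling gave 0 calls by limma. At an unadjusted p under 0.05 these lists had 0, 1 and 1 genes, with no share of all genes at that level beside them. Their medians were 0.04, -0.02 and 0.02. The genes with the smallest p were PGR (0.10 ± 0.10, SE; adjusted p = 0.521), TSC22D2 (-0.29 ± 0.12; adjusted p = 0.115) and H6PD, which supplies cofactor to the enzyme that regenerates cortisol (-0.24 ± 0.09; adjusted p = 0.0945). All 3 other NR3C receptors were dim, with group means of 3.65 to 5.21.

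**Figure D4:**
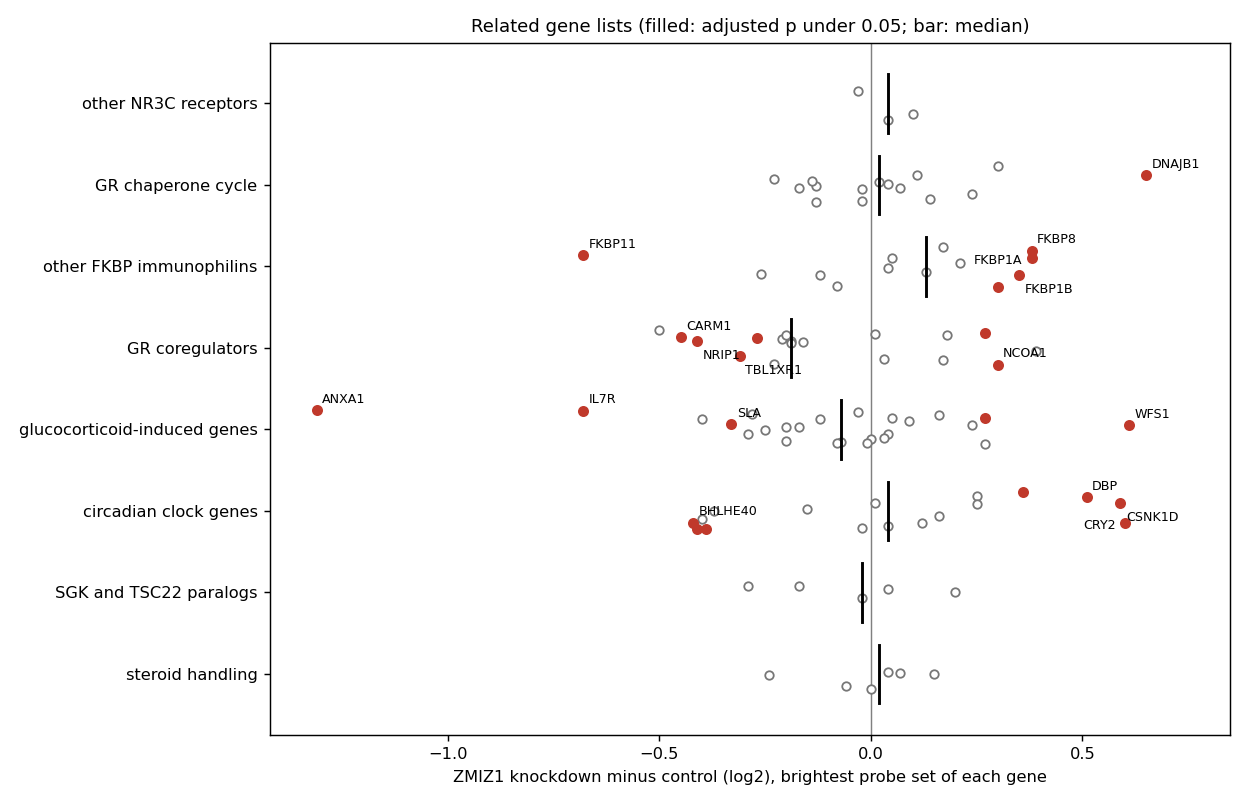
Difference in log2 signal, ZMIZ1 knockdown minus control (horizontal axis), of the brightest probe set of each of 102 genes in 8 lists (rows; vertical scatter within a row has no meaning). Filled points passed at an adjusted p under 0.05 over 20282 genes, black bars are list medians, and labels give the named genes; ANXA1 at -1.31 is the lowest and DNAJB1 at 0.65 the highest point.

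The genes whose brightest probe set ran most like each member over the 8 arrays are given as a description. They were taken among the other genes with a mean of at least 6, which were 11094 for the dim SGK1 and 11093 for every other member. The 8 arrays share 2 groups and their quality, and no p is given. FKBP5 ran with GRB10 (Pearson r 0.996), RBL2 (0.995) and IVNS1ABP (0.994), whose differences were -0.84, -0.80 and -0.96. NR3C1 ran with IL10RB (0.989), CBR4 (0.984) and TMEM135 (0.983), and TSC22D3 with IFNA17 (0.989), DRAM2 (0.986) and ITGA5 (0.983). FKBP4 ran with JAG2 (0.984), DUS2 (0.941) and TRIP13 (0.936), SGK1 with ARAP2 (0.980), BRI3BP (0.963) and PYY (0.939), and PER1 with POM121L12 (0.965), CEP131 (0.949) and YY1AP1 (0.939). None of these 18 genes is in the 8 lists.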

How the data were processed

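RNA of 4 ZMIZ1 knockdown and 4 control cultures of CEM was measured on Affymetrix HG-U133 Plus 2.0 arrays from 250 ng of total RNA with 3′ in vitro transcription labelling, per the labels' protocols. The authors deposited log2 values per probe set, made with RMA per the submitters' processing notes (version not given in the sources used here), in 2 tables that differ by at most 5.0e-09. The values were used as deposited, less 62 control probe sets. Arrays give no counts, so the 4 arrays per group limit the precision.

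In R 4.3.3, limma 3.58.1 (lmFit, then eBayes) gave two-sided tests of the differences. Their degrees of freedom were the 6 residual ones plus the prior ones that eBayes estimates. Benjamini-Hochberg adjustment was over 54613 probe sets, or over 20282 genes where each gene is its probe set of highest mean. The files pair 41479 probe sets with 1 symbol, and 40270 of these matched a RefSeq gene ID. Single values were compared with exact two-sided permutation tests. The scripts were tested on simulated data.

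The members and lists were chosen with earlier results of these data known. Named genes were the members, ZMIZ1, up to 4 passing genes per list with the largest differences (otherwise the one with the smallest p), and the 3 genes most like each member; others named were chosen after their values were seen. NR1D1 of the clock list has no probe set with a single symbol, so 102 of 103 list entries were measured; another list gene is not reported here. Replicates are biological and unpaired per the design text, and same-numbered arrays did not deviate together (correlations 0.06, -0.09, 0.05 and 0.05). Alternatives were a replicate block, median centring, quantile normalization, a variance trend, array weights, the methods' t-test, a filter on dim probe sets (mean under 6), the 18S covariate, knockdown replicates 1 and 2 only, other rules for a gene's probe set, and each array left out.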

Additional observations from a re-analysis of the deposited data

Results flagged for a closer look

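In 42 groups of 4 arrays, an array was taken as standing apart when its gap to the nearest other exceeded Dixon's 95% critical share of the group's range, which chance gives in about 1 of 20 groups. This held for 4 groups of member probe sets. On FKBP5 204560_at control replicate 4 was at 7.93, with a gap of 0.9 of the range. On TSC22D3 208763_s_at knockdown replicate 1 was at 7.73, below the 8.18 to 8.26 of the other knockdown arrays, with a gap of 0.86. Control replicate 2 was high on both brighter PER1 probe sets, at 8.05 on 36829_at (0.93) and 8.09 on 202861_at (0.89). By the same limit control replicate 4 stood high on 0.905% of all probe sets.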

How the results depend on the processing

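The 4 arrays per group limit the precision, and the 18S covariate, which separates the groups, gave FKBP5 224840_at an SE of 0.16, against 0.08 without it. Of 811 alternative values, 683 kept direction and side of the threshold (a count, within 1.5 times; a value with no test, within 1 SD), 78 no longer passed, 11 newly passed, 21 changed sign and 18 moved further. The replicate block gave -0.55 for FKBP5 224840_at and 0.58 for FKBP4 minus FKBP5, changed PER1 242832_at as stated above and raised the count of members that passed to 2. Array weights also gave 2, the 18S covariate 0, and arrays left out 1 to 2. With the 18S covariate FKBP5 224840_at was -0.50 (adjusted p = 0.227), and signs turned for NR3C1 216321_s_at (0.02), 201865_x_at (0.24) and 211671_s_at (0.24), FKBP4 200895_s_at (-0.08), TSC22D3 235364_at (-0.09), PER1 36829_at (-0.11) and 202861_at (-0.23), ZMIZ1 232508_at (0.03) and TSC22D2 (0.15). With knockdown replicates 1 and 2 only, FKBP4 200895_s_at was -0.03, PER1 36829_at -0.03, PER1 202861_at -0.01 and FKBP4 minus FKBP5 0.47. Quantile normalization gave -0.02 for PER1 36829_at, array weights 0.02 for ZMIZ1 233060_at, and leaving out _s_at and _x_at probe sets -0.20 for DBP and 0.05 for TSC22D2. Arrays left out in turn gave -0.02 to 0.09 for FKBP4 200895_s_at, -0.96 to -0.20 for TSC22D3 208763_s_at, -0.34 to -0.22 for SGK1, -0.01 to 0.07 for PER1 36829_at, -0.22 to 0.05 for ZMIZ1 232508_at, -0.15 to 0.05 for ZMIZ1 233060_at, 0.52 to 0.67 for FKBP4 minus FKBP5, -2.52 to -1.76 for the 18S signal, 0.24 to 0.80 for the ACTB difference and 0.02 to 0.09 for that of GAPDH. All probe sets that passed numbered 7592 as reported, 3910 by the methods' t-test with Benjamini-Hochberg adjustment, 48 with the 18S covariate, 1943 with knockdown replicates 1 and 2 only and 4438 to 7430 with an array left out. Of the list genes 24 passed as reported, 39 with array weights, 12 by the methods' t-test and 1 with the 18S covariate. With that covariate 1.21% of all genes passed. With knockdown replicates 1 and 2 only 10 list genes passed, and 15 to 25 with an array left out. The causes were not tested.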
